A study of Homo sapiens with 4 samples.

Results

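The genes described here are 10 components of the Notch pathway, 4 ligands (JAG1, JAG2, DLL1 and DLL3), 4 receptors (NOTCH1, NOTCH2, NOTCH3 and NOTCH4) and 2 target genes (HES1 and HEY1), out of 18239 genes that the platform annotation names on their own. The 10 genes have 34 probe sets annotated with 1 symbol, and each gene was read from its brightest probe set, judged by the mean of all 4 arrays. The study compared MTAC-P with PC9, each measured on 2 arrays of total RNA. MTAC-P is labelled as a resistant lung cancer line obtained by exposure to a mild tyrosine kinase inhibitor regimen. The labels name no inhibitor, dose, parent line or clone, and they do not state whether drug was present at harvest. PC9 is a lung adenocarcinoma line of human origin that carries an EGFR-activating mutation. Both lines were grown in DMEM with serum, and no other agent or genotype is given for either.

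Notch receptors are single-pass membrane proteins that are switched on by ligands of the Jagged and Delta-like families on a neighbouring cell. Ligand binding exposes the receptor to an ADAM protease and then to the gamma-secretase complex, and the released intracellular domain enters the nucleus, where it joins the DNA-binding protein RBPJ and a Mastermind coactivator to switch on genes of the HES and HEY families. In the lung the pathway sets the balance between secretory and ciliated or neuroendocrine cells, and in lung cancer DLL3 is best known from neuroendocrine tumours.

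Values are deposited log2 expression values, so a difference of 1 equals a factor of 2. The 4 array medians lay between 4.85 and 4.88. All 10 genes stayed in the test, which left out genes with a mean under a log2 value of 4.14. Probe sets that match no gene and hold up to 24 G or C bases ran from 3.59 to 5.23 in MTAC-P and from 3.56 to 4.95 in PC9, so a gene in that range cannot be told from nonspecific signal. Those with 20 to 24 G or C averaged 4.83 in MTAC-P and 4.62 in PC9. The 1 nonspecific probe set with 25 G or C read 7.34 to 7.38 in MTAC-P and 6.81 to 6.94 in PC9, above both JAG2 and the dim genes described here. The 5 epithelial markers were bright in both lines, at 10.28 to 14.42 in MTAC-P and 10.85 to 14.32 in PC9, whereas the 3 lung lineage markers stayed within 4.59 to 5.22 in MTAC-P and 4.65 to 5.17 in PC9. The blood, fibroblast and endothelial markers reached at most 5.95 in MTAC-P and 5.53 in PC9. In such bulk RNA, fewer cells with a transcript and less transcript per cell cannot be told apart.

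The comparison asks which Notch components separate the resistant line from PC9. On the brightest probe sets, the ligand DLL3 and the receptors NOTCH2 and NOTCH4 had the largest positive differences, between 0.47 and 0.65 on the log2 scale, while the targets HES1 and HEY1 and the receptor NOTCH3 lay lower in MTAC-P by means of 0.3 to 0.4. JAG1 and JAG2 were nearer to 0, and the intervals of DLL1 and NOTCH1 were centred close to 0. None of the 10 genes passed limma's adjusted p threshold of 0.05, and 3 (DLL3, NOTCH2 and NOTCH4) had an unadjusted p under 0.05. Over all 14970 tested genes 0.0200% passed the adjusted threshold and 18.9% had an unadjusted p under 0.05. For 6 of the 10 genes the lines had non-overlapping arrays, against 53.2% of all tested genes. Of these, 5 were higher in MTAC-P (28.3% of all genes were) and 1 was lower (24.9% of all genes were). The difference was positive for 7 of the 10 genes, against 53.8% of all tested genes. It exceeded the gaps between duplicates of both lines for 6 of the 10, against 38.5% of all tested genes. These shares are a background to read the counts against and not a test. The median difference of the 10 genes was 0.16 and that of all tested genes 0.03. The smallest 2-sided p that exact permutation of 2 against 2 arrays allows is 0.333. The labels call the arrays duplicates with no word on separate cultures, and p-values may then measure technical spread alone.

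**Figure D1:**
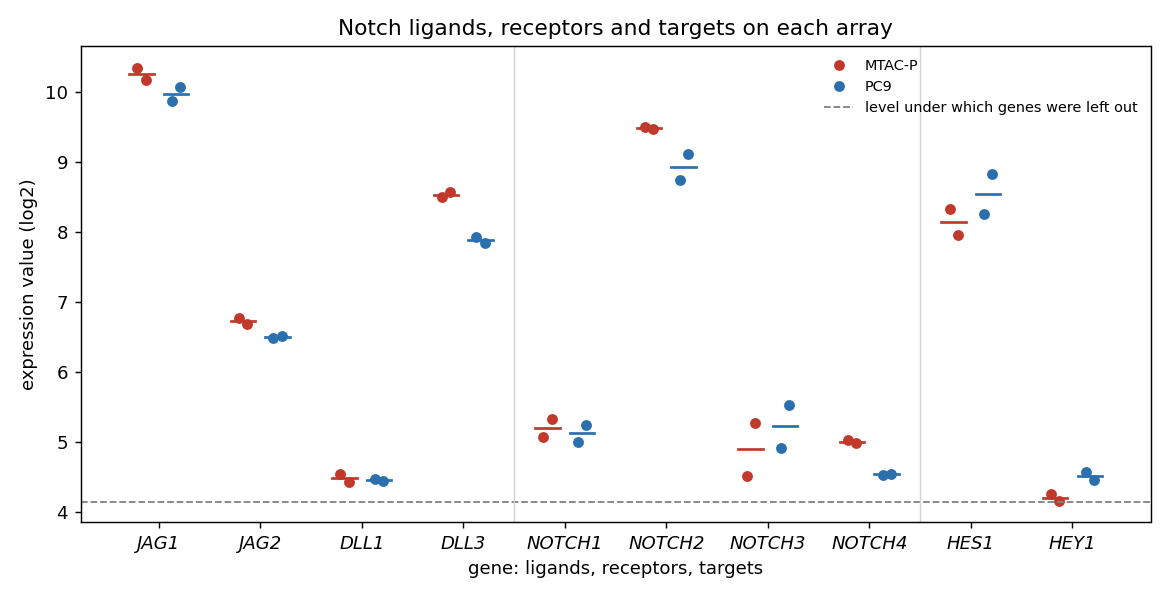
Log2 expression value of each of the 10 genes on each array (points), with the mean of the 2 arrays of a line (short bars), for MTAC-P (red, left) and PC9 (blue, right), and the level of 4.14 below which genes were left out (dashed line). DLL3, NOTCH2, NOTCH4, JAG1 and JAG2 have both MTAC-P points above both PC9 points, HEY1 has them below, and NOTCH1, NOTCH3, DLL1 and HES1 overlap.

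Among the ligands, DLL3 had the largest difference on the brightest probe sets. With the mean of all probe sets DLL3 differed by 0.39 and JAG1 by 0.36. DLL3 is a divergent Delta-like protein that stays largely inside the cell and dampens Notch signalling in the cell that makes it. Its log2 values were 8.49 and 8.57 in MTAC-P, against 7.93 and 7.84 in PC9. Both MTAC-P arrays therefore lay above both PC9 arrays, and the gap between the lines exceeded the gaps between duplicates, which were 0.08 in MTAC-P and 0.09 in PC9. The mean was 8.53 ± 0.05 in MTAC-P and 7.88 ± 0.07 in PC9 (SD, n = 2 each), a log2 difference of 0.65 (SE 0.15, 95% interval 0.28 to 1.02, limma adjusted p = 0.129) and a 1.56-fold higher level in MTAC-P. Of all tested genes, 9.16% had a larger absolute difference. The second probe set of DLL3 read 7.81 and 7.85 in MTAC-P and 7.27 and 7.48 in PC9, a difference of 0.45 with no overlap. The third, at 4.51 to 4.76 in MTAC-P and 4.57 in both PC9 arrays, lay within the range of nonspecific signal and differed by 0.06. The 5 neuroendocrine markers had summed log2 levels of 30.58 to 30.96 in MTAC-P and 30.34 to 30.36 in PC9. Of these, UCHL1 was bright on all 4 arrays and CHGA and INSM1 were below the level of 4.14 in their means. SYP read 5.77 and 5.23 in MTAC-P, against 4.99 and 4.90 in PC9, and NCAM1 read 4.45 and 4.55 in MTAC-P, against 4.86 and 4.73 in PC9, so these 2 lay apart in opposite directions. NCAM1 lay within the nonspecific range on all 4 arrays, and SYP lay near its upper edge except on MTAC-P replicate 1. The part of these markers in the DLL3 difference was not tested.

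JAG1, the Jagged ligand most widely expressed in epithelia, read 10.35 and 10.16 in MTAC-P, against 9.87 and 10.06 in PC9. The lower MTAC-P array was only slightly above the higher PC9 array. The log2 difference of JAG1 was 0.29 (SE 0.17, 95% interval -0.12 to 0.69, limma adjusted p = 0.395). The other JAG1 probe sets gave larger differences on the whole. The second brightest read 8.50 and 7.87 in MTAC-P, against 7.47 and 7.31 in PC9, a difference of 0.79. The next read 7.26 and 7.42 in MTAC-P, against 6.80 and 6.85 in PC9, a difference of 0.51. Of the 5 JAG1 probe sets above the level of 4.14, 4 had both MTAC-P arrays above both PC9 arrays and 1 had a difference of -0.06. The size of the JAG1 difference thus depends on the probe set. Its brightest probe set and the one with the difference of 0.51 carry the suffix that marks probes shared by more than 1 transcript. The same suffix stands on probe sets annotated with more than 1 gene, so such transcripts need not come from 1 gene.

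JAG2, the second Jagged ligand, read 6.78 and 6.69 in MTAC-P, against 6.48 and 6.51 in PC9, a log2 difference of 0.24 (SE 0.15). Its arrays did not overlap, and 47.2% of all tested genes had a larger absolute difference. DLL1, a Delta-like ligand that activates Notch, read 4.54 and 4.42 in MTAC-P, against 4.48 and 4.44 in PC9. These values overlapped, lay within the nonspecific range on all 4 arrays and gave a log2 difference of 0.02 (95% interval -0.35 to 0.39).

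Among the receptors, NOTCH2 gave the most even picture over its probe sets. NOTCH2 is a receptor of epithelial progenitors, liver bile ducts and B cells. Its brightest probe set read 9.49 and 9.46 in MTAC-P, against 8.75 and 9.11 in PC9. The MTAC-P arrays were nearly equal and above both PC9 arrays, which were 0.37 apart. The mean was 9.48 ± 0.02 in MTAC-P and 8.93 ± 0.26 in PC9 (SD, n = 2 each), a log2 difference of 0.55 (SE 0.18, 95% interval 0.11 to 0.99, limma adjusted p = 0.195) and a 1.46-fold higher level in MTAC-P. The second probe set of NOTCH2 read 7.79 and 7.58 in MTAC-P, against 6.89 and 7.02 in PC9. All 4 of its probe sets above the level of 4.14 had non-overlapping arrays and differences of 0.51 to 0.73, and the fifth, which was dim, differed by 0.04. NOTCH2 has near-identical partial copies, the NOTCH2NL genes, so probes in the shared part cannot be assigned to NOTCH2 alone. The 3 probe sets annotated with both NOTCH2 and NOTCH2NLA were not used for the gene. The 2 bright ones differed by 0.67 and 0.52, with higher values on both MTAC-P arrays, and the dim one by -0.22.

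NOTCH4, a receptor best known from endothelium, read 5.03 and 4.98 in MTAC-P, against 4.52 and 4.55 in PC9. The duplicates were close and the lines apart, with a log2 difference of 0.47 (SE 0.15, 95% interval 0.11 to 0.83, limma adjusted p = 0.187). Only 1 of the 4 arrays lay above the highest nonspecific probe set of up to 24 G or C bases on the same array. Nonspecific probe sets with 20 to 24 G or C were themselves higher in MTAC-P by a mean of 0.21, and the one with 25 G or C by 0.48. The part of this shift in the NOTCH4 difference was not tested. The 3 other probe sets of NOTCH4 had MTAC-P values of 4.04 to 4.34 and differences of -0.06 to 0.05, and with the mean of all 4 probe sets NOTCH4 differed by 0.11.

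NOTCH1, the receptor most studied in development and leukaemia, read 5.06 and 5.33 in MTAC-P, against 5.003 and 5.24 in PC9. In each line the replicate 2 array was the higher one, and the lines overlapped, with a log2 difference of 0.08 (95% interval -0.35 to 0.51). On all 4 arrays NOTCH1 lay above the highest nonspecific probe set of up to 24 G or C bases on the same array. Its MTAC-P replicate 1 value was still under that line's upper limit of 5.23. Its other probe sets had means of 4.35 and 4.02 over all arrays and differed by -0.02 and -0.04. NOTCH3, a receptor of smooth muscle and basal epithelial cells, read 4.51 and 5.27 in MTAC-P, against 4.91 and 5.53 in PC9. The gap between duplicates, 0.76 in MTAC-P and 0.62 in PC9, was larger than the difference between the lines of -0.33 (SE 0.31, 95% interval -1.08 to 0.42). The other NOTCH3 probe set differed by 0.20, with overlapping arrays, and without MTAC-P replicate 1 the brightest one differed by 0.05, so no direction can be given for NOTCH3. It lay above the highest nonspecific probe set of up to 24 G or C bases on 2 of the 4 arrays.

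**Figure D2:**
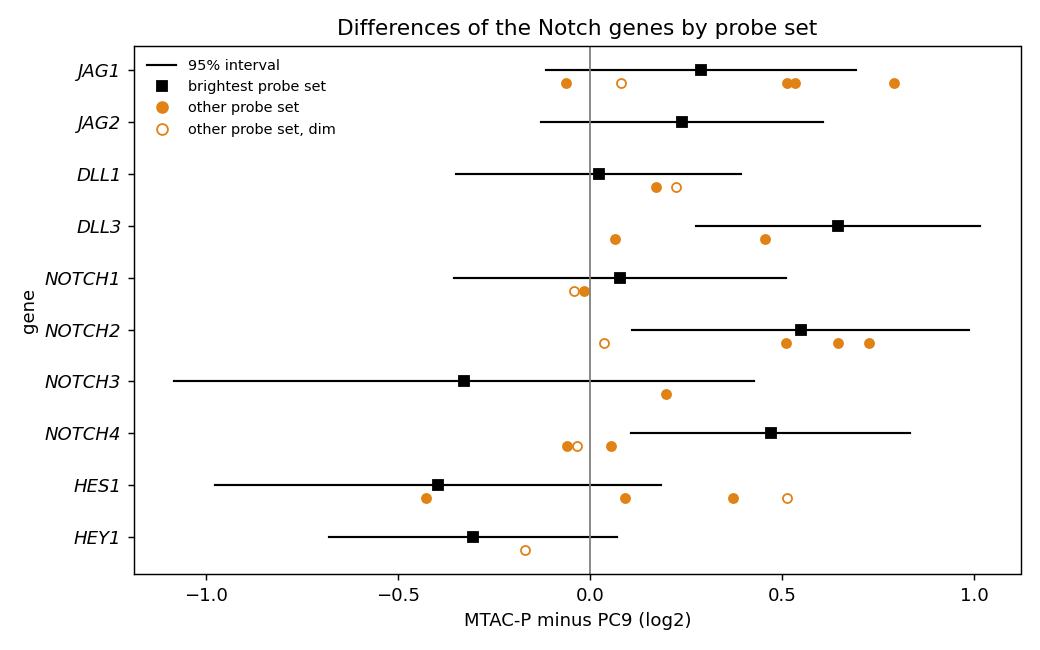
Difference between the lines (MTAC-P minus PC9, log2) of each gene for its brightest probe set (black square, with limma's 95% interval), for its other probe sets above the level of 4.14 (filled orange circles) and for those below it (open circles). The NOTCH2 probe sets above that level lie between 0.51 and 0.73, whereas those of HES1 fall on both sides of 0, between -0.43 and 0.37.

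HES1 and HEY1 encode repressors of the basic helix-loop-helix class that Notch switches on directly. HES1 read 8.33 and 7.96 in MTAC-P, against 8.26 and 8.82 in PC9. MTAC-P replicate 1 lay slightly above PC9 replicate 1, so the arrays overlapped. This brightest probe set carries the suffix that marks probes shared by more than 1 transcript, not necessarily of 1 gene. The mean was 8.14 ± 0.26 in MTAC-P and 8.54 ± 0.40 in PC9 (SD, n = 2 each), a log2 difference of -0.40 (SE 0.24, 95% interval -0.98 to 0.18, limma adjusted p = 0.412). The second probe set of HES1 read 6.75 and 7.08 in MTAC-P, against 7.21 and 7.48 in PC9, a difference of -0.43 with no overlap. The 3 remaining HES1 probe sets were dimmer, at 4.03 to 5.11 in MTAC-P and 3.60 to 5.02 in PC9, and differed by 0.09 to 0.51. The direction of HES1 is thus that of its 2 bright probe sets and turns to 0.03 with the mean of all 5. HEY1 read 4.25 and 4.16 in MTAC-P, against 4.57 and 4.45 in PC9, a log2 difference of -0.31 (SE 0.16, 95% interval -0.68 to 0.07, limma adjusted p = 0.338). Its arrays did not overlap, but all 4 lay within the range of nonspecific signal.

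Promoters of HES and HEY genes are printed because this family holds the textbook direct targets of RBPJ and Notch. The RBPJ core motif GTGGGAA was searched on both strands (as TTCCCAC on the other) in the 250 bases before each start in RefSeq's GRCh38.p14 promoter table. Of the 9 HES and HEY genes of the pathway list, 8 had an entry and 5 held the motif, and of the 7 ligands, receptors and targets among the 10 genes with an entry only HES1 did (not matched were DLL1, DLL3 and HEY1). RBPJ itself, another gene of the pathway list, held 2 copies, 115 and 73 bases before 1 of its starts. Among all 27305 genes with an entry, 6.69% held it in at least 1 window. Each stretch below reads 5′ to 3′ on the strand of its gene, with the motif in capitals and 20 bases on each side. HES1 lies on the plus strand at chr3:194136043-194136089, with the first motif base 85 bases before the start. HES4 lies on the minus strand at chr1:1000148-1000194 with the motif 77 bases before the start, and HES5 on the minus strand at chr1:2530318-2530364 with the motif 81 bases before the start. HEY2 lies on the plus strand at chr6:125749399-125749445 with the motif 213 bases before the start, and HEYL on the minus strand at chr1:39639795-39639841 with the motif 178 bases before the start.
HES1: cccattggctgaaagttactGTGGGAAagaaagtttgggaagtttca
HES4: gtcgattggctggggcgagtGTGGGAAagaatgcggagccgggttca
HES5: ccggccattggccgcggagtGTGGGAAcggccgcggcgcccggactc
HEY2: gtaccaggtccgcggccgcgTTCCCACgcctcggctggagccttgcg
HEYL: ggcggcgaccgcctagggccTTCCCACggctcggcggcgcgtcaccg
HES5 holds a second copy, on the other strand, 224 bases before its start. The motif stands on the gene's own strand at 77 to 85 bases in HES1, HES4 and HES5, and on the other strand and farther out in HEY2 and HEYL. On the brightest probe sets HES1 differed by -0.40, HES4 by 0.09, HES5 by 0.30, HEY2 by 0.30, HEYL by 0.27 and RBPJ by -0.45, and 0 of these 6 genes passed limma's adjusted threshold. HES1, HES4 and HEY2 had overlapping arrays, HES5, HEY2 and HEYL lay in or at the edge of the nonspecific range, and HES1, HEY2, HEYL and RBPJ had probe sets of the opposite sign, so no direction is given for the genes with the motif. A match in these letters is a description of the sequence and not a measured binding site.

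The pathway list counts 10 other tested genes as targets, HES2 and HES6 among them. Their induction by Notch in these lines was not tested. Of these 10, 0 passed limma's adjusted threshold in either direction. An unadjusted p under 0.05 from limma was found for 1, against 18.9% of all tested genes. The difference was positive for 8, against 53.8% of all genes. The arrays lay apart for 5, close to the 53.2% of all genes, with 4 higher and 1 lower in MTAC-P, and several of the 10, among them HES2, HES5, HEY2 and HEYL, lay in or near the nonspecific range. HES7, the oscillating repressor of the somite clock, had the largest positive difference. It read 7.64 and 8.01 in MTAC-P, against 7.30 and 7.32 in PC9, a log2 difference of 0.51 (SE 0.18, limma adjusted p = 0.217). NRARP, a feedback inhibitor that Notch induces and that was chosen after its values were seen, read 8.75 and 9.08 in MTAC-P, against 8.48 and 8.72 in PC9, a log2 difference of 0.31, and its second probe set differed by 0.68. CCND1, the cyclin D1 gene, had the largest negative difference, -0.20, at 11.27 and 11.23 in MTAC-P and 11.42 and 11.49 in PC9. ATOH1, a proneural factor that HES1 represses in gut and inner ear, was the only tested gene of its class and differed by 0.15 within the nonspecific range.

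Over all 47 tested genes of the list other than the 10, these targets included, 0 passed limma's adjusted threshold and 11 had an unadjusted p under 0.05, against 18.9% of all tested genes. Their median difference was 0.09, and 23 of the 47, or 48.9%, had non-overlapping arrays, against 53.2% of all genes. Of the 7 tested genes of receptor cleavage, 4 lay higher in MTAC-P without overlap (28.3% of all genes did) and 2 lower (24.9% of all genes did). The 4 higher ones encode gamma-secretase subunits. PSEN2, a catalytic subunit, read 9.32 and 9.40 in MTAC-P, against 8.75 and 8.32 in PC9, a log2 difference of 0.82 (SE 0.19, limma adjusted p = 0.128), and its 6 probe sets ranged from -0.02 to 0.82. APH1A differed by 0.54, with all 7 of its probe sets positive, NCSTN by 0.29 and PSENEN by 0.24. Of these, APH1A, NCSTN and PSENEN are named because they make up the count. The brightest probe set of NCSTN carries the suffix for shared probes described for JAG1 and HES1. The 2 lower ones are the proteases that cut the receptor first. ADAM10 read 6.01 and 5.30 in MTAC-P, against 6.42 and 6.23 in PC9, a log2 difference of -0.67 (SE 0.25), and all 4 of its probe sets were negative, the smallest difference being -0.08. Its MTAC-P duplicates were 0.705 apart, farther than the lines. Leaving out 1 array moved the difference between -1.02 and -0.32. ADAM17, also chosen after its values were seen, differed by -0.29, and 3 of its 4 probe sets were positive.

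Of the 10 tested genes of the nuclear complex, 6 lay lower in MTAC-P without overlap, against 24.9% of all genes, and 1 higher, against 28.3%. An unadjusted p under 0.05 was found for 5 of them, against 18.9% of all genes, and 0 passed the adjusted threshold. The median difference of these 10 genes was -0.39. MAML3, a Mastermind coactivator, had the largest negative difference, -0.57 (SE 0.17), with 4.47 and 4.69 in MTAC-P and 5.25 and 5.06 in PC9, but 2 of its 3 probe sets above the level of 4.14 had the opposite sign. The other lower genes, named because they make up the count, were RBPJ, the DNA-binding partner of Notch (-0.45), MAML1 (-0.39), MAML2 (-0.45), the acetyltransferase EP300 (-0.43) and the corepressor SPEN (-0.40). RBPJ read 9.13 and 8.80 in MTAC-P, against 9.40 and 9.44 in PC9. Of its 5 probe sets above the level of 4.14, 4 were negative, and they ranged from -0.81 to 0.26. The other probe set of MAML1 differed by 0.35. The brightest probe sets of RBPJ and MAML1 carry the suffix for shared probes described for JAG1 and HES1. SPEN read 5.035 and 4.80 in MTAC-P, against 5.34 and 5.30 in PC9. The MTAC-P values of SPEN and MAML3 lay within the nonspecific range of that line. KAT2A, an acetyltransferase, had the largest positive difference, 0.27, at 8.11 and 8.08 in MTAC-P and 7.77 and 7.87 in PC9.

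Among genes that act on the ligands, MIB1, the ubiquitin ligase that drives ligand endocytosis, was the only one of the 47 with means at least 2-fold apart, which held for 2.02% of all tested genes. MIB1 read 6.66 and 5.92 in MTAC-P, against 7.498 and 7.35 in PC9. Both MTAC-P arrays were well below PC9 but 0.74 apart from each other, and the log2 difference was -1.14 (SE 0.26, limma adjusted p = 0.124). Leaving out 1 array moved the MIB1 difference between -1.51 and -0.77, and at -0.77 the means are less than 2-fold apart. All 5 MIB1 probe sets were negative, from -1.14 to -0.08. NEURL1, another ligase for ligands, differed by 0.23, with 4 of 4 probe sets positive. In the sugar-modifying group, POGLUT1, which adds glucose to the receptor, read 8.01 and 7.11 in MTAC-P, against 8.19 and 8.29 in PC9, a log2 difference of -0.69 (SE 0.30). The MTAC-P duplicates of POGLUT1 were 0.90 apart, farther than the lines. Leaving out 1 array moved its difference between -1.14 and -0.23. For MIB1, POGLUT1 and ADAM10 alike, MTAC-P replicate 2 was the lowest of the 4 arrays. MFNG, a Fringe enzyme, differed by 0.17 with overlapping arrays and lay within the nonspecific range on all 4 arrays. Among regulators of receptor turnover only NUMBL, a relative of the Notch inhibitor NUMB, had non-overlapping arrays. NUMBL read 7.84 and 7.89 in MTAC-P, against 7.45 and 6.39 in PC9, a log2 difference of 0.95 (SE 0.33). Its PC9 duplicates were farther apart than the lines, and 3 of its 5 probe sets had the opposite sign. DTX4, a Deltex ligase, had the largest negative difference of this group, -0.15, with overlapping arrays. Of the 3 further ligands, DLK2 differed by 0.29 and DLL4 by -0.06, both with overlapping arrays. DLL4 lay within the nonspecific range on all 4 arrays, and its other probe set differed by 0.09. DLK2 lay within that range on 1 array of each line. DLK1, named to complete the 3, read 4.68 and 4.42 in MTAC-P, against 4.41 and 4.39 in PC9, a difference of 0.16 without overlap but within the nonspecific range.

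**Figure D3:**
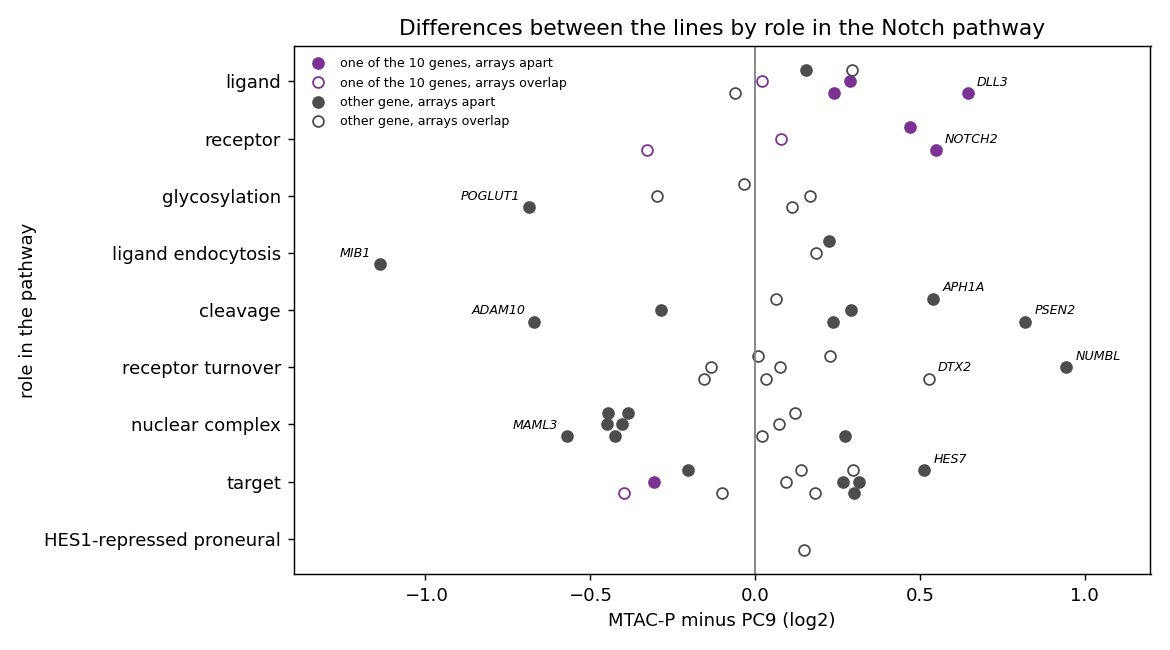
Difference between the lines (MTAC-P minus PC9, log2) of every tested gene of the Notch pathway list, by role, for the 10 genes (purple) and the other genes (grey). Filled circles have non-overlapping arrays, open circles overlap, and names are given beyond 0.5 in either direction. The nuclear complex has a cluster of 6 filled circles between -0.57 and -0.39, and the cleavage group has filled circles on both sides of 0.

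By likeness of the 4 array values, each gene less its own mean, the genes nearest to DLL3 were SORBS3, WDR4 and CERS2, at Euclidean distances of 0.012, 0.044 and 0.046 on the log2 scale. SORBS3, an adhesion adaptor, read 7.35 and 7.43 in MTAC-P, against 6.80 and 6.70 in PC9. WDR4, a subunit of a tRNA methyltransferase, differed by 0.61, and CERS2, a ceramide synthase, by 0.63. With 4 arrays and 14970 genes, close profiles are found for many genes, so these 3 are a description only.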

How the data were processed

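MTAC-P and PC9 were each profiled on 2 one-colour arrays. The authors deposited log2 values, 1 per probe set and array, which run from 3.32 to 14.6; the log2 scale is inferred from the values, and the background correction, normalization and summarization are not given in the sources used here. Agilent Feature Extraction 10.7 is named per the submitters' processing notes and an Agilent labelling kit per the labels' protocols, although the probe-set names follow Affymetrix conventions. The number of arrays limits the precision.

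Of 49386 probe sets, GEO's platform annotation gives 1 symbol for 45253, several for 1327 and none for 2713; 93 are controls. Symbols were updated by gene identifier (20 tested genes had no match in GRCh38.p14). Each of 18239 genes was represented by its brightest probe set, genes with a mean under the 25th percentile were left out, and 14970 were tested by lmFit and eBayes of limma 3.58.1 (R 4.3.3, 2-sided, Benjamini-Hochberg over all tested genes). The limma step was tested on simulated data. Figures were drawn with matplotlib 3.10.9.

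The 10 genes and all lists were chosen with earlier results of these data known. Named are the 10 genes, in each role of the 53 other pathway genes (47 tested) the largest positive and negative difference, and the 3 genes nearest to the member that differed most; HES4, HES5, HEY2 and HEYL were named for their promoters. The alternatives tried were a block on the replicate number, other scalings and dim filters, the mean of all probe sets, each other probe set, a variance trend, a pseudocount of 16 and leaving out each array.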

Additional observations from a re-analysis of the deposited data

How the results depend on the processing

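No direction changed under any alternative for NOTCH2, JAG2, DLL3 and HEY1, but fewer alternatives could change it for JAG2 and HEY1. JAG2 has only 1 probe set and HEY1 only 1 above the dim filter, so no other probe set was tried for either. HEY1 was also left out by the 50th percentile filter. The replicate block, the variance trend and the dim filters do not alter a difference, so they cannot turn its direction. Leaving out 1 array moved NOTCH2 between 0.36 and 0.73, NOTCH4 between 0.44 and 0.50, JAG1 between 0.19 and 0.38, DLL3 between 0.60 and 0.69, HES1 between -0.68 and -0.12, NOTCH1 between -0.0544 and 0.21, NOTCH3 between -0.71 and 0.0515 and DLL1 between -0.0378 and 0.0803. NOTCH1 turned to -0.0382 without PC9 replicate 1 and to -0.0544 without MTAC-P replicate 2, NOTCH3 to 0.0515 and DLL1 to -0.0378 without MTAC-P replicate 1, and DLL1 to -0.0010 with quantile normalization. With another probe set NOTCH1 turned to -0.0158, NOTCH3 to 0.20, NOTCH4 to -0.0618, JAG1 to -0.0643 and HES1 to 0.0892 and 0.37, and with the mean of all probe sets HES1 turned to 0.0288. The mean of all probe sets also moved DLL3 to 0.39, NOTCH4 to 0.11 and NOTCH3 to -0.0658, and the pseudocount moved NOTCH4 to 0.30, NOTCH3 to -0.22 and HEY1 to -0.17. The cause was not tested. The count of all genes past the threshold, 3, was 0 to 68 when 1 array was left out (68 without PC9 replicate 1, 0 without either MTAC-P array). It was 1 with the 50th percentile filter, 0 with the mean of all probe sets, 77 with a variance trend and 1 with the pseudocount. None of the 10 genes passed in these fits. The median of the 10 genes was 0.24 with the 50th percentile filter, which left 7 of them. The median of the other pathway genes was 0.0318 with the mean of all probe sets and 0.0311 to 0.10 when 1 array was left out.

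With the replicate number as a block, 2079 of 14970 tested genes passed, among them DLL3 (0.65, limma adjusted p = 0.0164) and NOTCH2 (0.55, limma adjusted p = 0.0461). With so many genes passing, these calls do not single out DLL3 and NOTCH2. Deviations of same-numbered arrays correlated at r = 0.28 across genes, but nothing in the labels pairs the arrays. That fit has 1 residual degree of freedom and 29.97 prior degrees of freedom, against 2 and 4.38 without the block.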
